A study of Mus musculus with 4 samples.

Results

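The adipogenic and lipid handling genes described here are Pparg, Cebpa, Cebpb, Fabp4, Lpl, Cd36, Plin2, Angptl4, Aoc3 and Apoe. They were chosen by name, with earlier results of these data known, and all 10 were found among the 30406 genes shared by the 4 count tables. The tables hold single-cell RNA-seq of mammary tissue from female WT C57B6 mice (the B6/N substrain, from the study's methods) of P0 (the day of birth) and of the embryonic stages E13.5, E14.5 and E15.5, with 1 library per stage and no genetic change or treatment in any group. Rudiments of several embryos, with their surrounding mesenchyme, were pooled at each stage, and cells carrying CD45, CD31 or Ter119 (leukocytes, endothelium and erythroid cells) were gated out. Mesenchymal cells were those with at least 5000 UMIs (unique molecular identifiers, 1 per captured transcript), at most 6% mitochondrial UMIs, at least 10 UMIs of Col1a1, Col1a2 and Col3a1 together, and collagen UMIs above 2 times those of Epcam, Krt8, Krt18, Krt5 and Krt14. The mirror rule gave the epithelium, which includes epidermis of the skin. In order of age there were 129, 31, 279 and 265 mesenchymal cells against 98, 45, 526 and 229 epithelial cells.

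Each stage was dissected in a session of its own, and P0 tissue was digested with more collagenase and less hyaluronidase than embryonic tissue, so stage, session, library and digestion cannot be told apart, and no comparison between stages has a replicate. No p-value is given. Levels are a gene's UMIs per 1000000 UMIs summed over the cells of a group (CPM), and every interval is an exact 95% interval that covers counting error only. The share that a count of 0 allows is given as 3 cells of the total, which is not such an interval. The median mesenchymal cell held 16573, 24268 and 24324 UMIs at the embryonic stages in order and 8778 at P0, so shares of cells with a UMI are also given with each cell thinned to 5000 UMIs. All 8 mesenchymal marker genes, among them Pdgfra, Dcn and Twist1, were detected in the mesenchyme of every stage. Detection alone does not separate the tissues, since all 8 were also detected in E15.5 epithelium. The summed level of the list was 2590 CPM in mesenchyme and 51.4 CPM in epithelium at E13.5, and 7552 and 31.8 CPM at P0. In P0 mesenchyme the endothelial genes Cdh5, Tie1 and Emcn and the leukocyte gene Ptprc were at 0 UMIs, although Pecam1 stood at 34.6 CPM. Of the 7 genes on each of the endothelial and immune lists, 4 and 6 were detected there, with 91 and 28 UMIs. A single P0 mesenchymal cell held 10637 of the 10703 UMIs of the erythroid list. The epithelial marker list summed to 74.4 CPM in mesenchyme at E13.5 and 365 CPM at P0. Cells with 2 or more UMIs of Top2a and Mki67 made up 34.1%, 38.7% and 34.4% of mesenchymal cells at the embryonic stages and 2.64% at P0.

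Adipocytes form from mesenchymal progenitors through a cascade of transcription factors, in which C/EBP-beta acts early and PPAR-gamma and C/EBP-alpha then switch on the genes of lipid uptake and storage. Lipoprotein lipase frees fatty acids from circulating lipoproteins, CD36 takes them into the cell, FABP4 carries them in the cytoplasm and PLIN2 coats the droplets in which they are stored. In the mouse the mammary epithelium begins to sprout into the fat pad precursor before birth, and the adipocytes of that pad surround the ducts throughout adult life.

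All 10 genes are protein coding, and the positions that follow are GENCODE M21 annotations on mm10. The 3 transcription factors lie at chr6:115360951-115490399 (Pparg, plus strand), chr7:35119293-35121928 (Cebpa, plus strand) and chr2:167688915-167690418 (Cebpb, plus strand). Fabp4 lies at chr3:10204088-10208576 (minus strand), Lpl at chr8:68880491-68907448 (plus strand), Cd36 at chr5:17781690-17888801 (minus strand) and Plin2 at chr4:86648386-86670060 (minus strand). Angptl4 lies at chr17:33773750-33781830 (minus strand), Aoc3 at chr11:101330605-101341938 (plus strand) and Apoe at chr7:19696109-19699188 (minus strand). Pparg, Cebpa, Cebpb and Aoc3 overlap a gene on the opposite strand (Gm44079, Gm45091, Tmem189 and Gm28156). The counts are per gene, so they do not separate the start sites of one gene.

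Of the 3 regulators, Pparg and Cebpa but not Cebpb are shown with the bases just upstream of a start site. Pparg and Cebpa are the factors that hold the adipocyte state, and C/EBP proteins are known to bind upstream of Pparg. The sequences are from RefSeq on GRCm38.p6, 250 bases each, 5′ to 3′, ending at the base before the start. The first lies before start 3 of the Pparg starts listed, chr6:115421816-115422065 on the plus strand, and the other before the Cebpa start, chr7:35119043-35119292 on the plus strand. Capitals mark matches, on either strand, to the C/EBP letters TTGCNNAA, to CCAAT and to TATAAA.
Pparg start 3: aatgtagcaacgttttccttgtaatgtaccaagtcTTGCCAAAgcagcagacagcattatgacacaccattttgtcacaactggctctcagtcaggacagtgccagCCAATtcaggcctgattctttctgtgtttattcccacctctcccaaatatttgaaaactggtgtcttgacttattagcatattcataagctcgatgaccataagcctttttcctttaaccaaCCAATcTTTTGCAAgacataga
Cebpa: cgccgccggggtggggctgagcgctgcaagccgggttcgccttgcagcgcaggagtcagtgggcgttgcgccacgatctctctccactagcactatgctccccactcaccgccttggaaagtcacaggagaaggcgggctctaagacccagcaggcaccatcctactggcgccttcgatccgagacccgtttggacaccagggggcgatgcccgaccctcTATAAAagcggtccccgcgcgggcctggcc
The Pparg window holds TTGCNNAA matches 215 and 16 bases before the start and CCAAT matches 144 and 22 bases before it. The Cebpa window holds TATAAA 30 bases before the start and no TTGCNNAA. Among the 10 starts listed for 6 of the 10 genes, only the window of Pparg start 3 held TTGCNNAA, against 9.56% of all 32851 windows of this length. CCAAT was in 4 of the 10 windows, against 33.8% of all, and TATAAA in 3, against 12.4% of all. A match describes letters and is not a bound site. The table has no entry for Fabp4, Lpl, Angptl4 or Aoc3.

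Across the stages, 9 of the 10 genes were at least 2-fold higher in mesenchyme at P0 than at E13.5, and Plin2 was the exception. The background for that count was 14.8% of the 12085 genes with at least 10 UMIs in the 2 groups together, while 36.5% of genes were lower by that fold. Pparg, Fabp4, Cd36 and Aoc3 had fewer than 10 UMIs at E13.5, so they met that minimum only with their P0 UMIs. The genes were chosen with earlier results of these data known, so the count is not independent support. The median log2 ratio was 3.09 over the 10 genes and -0.59 over all genes tested. When every ratio was divided by the median ratio of all genes, the count was again 9, while the genes called higher became 52.2% of all genes called, from 28.9%. Against E15.5, which shares the P0 library with the first comparison, 9 of 10 were at least 2-fold higher and none lower (background 15.53% and 27.6%), and against E14.5 the count was 9 as well (background 13.4% and 35.3%). Fabp4 and Cd36 had fewer than 10 UMIs at E15.5, and Pparg, Cebpa, Fabp4, Lpl, Cd36 and Aoc3 had fewer than 10 at E14.5. In these comparisons too, those genes met the minimum only with their P0 UMIs. Between the embryonic stages few moved: from E13.5 to E15.5, Cebpb was higher (background 8.77%) and Lpl was lower (background 15.7%) among 8 members with 10 UMIs or more. From E13.5 to E14.5 the same 2 genes passed the fold, Cebpb upward (background 7.71%) and Lpl downward (background 7.12%, on 2 UMIs at E14.5), and none of 8 did from E14.5 to E15.5 (background 6.66% higher and 17.9% lower).

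**Figure D1:**
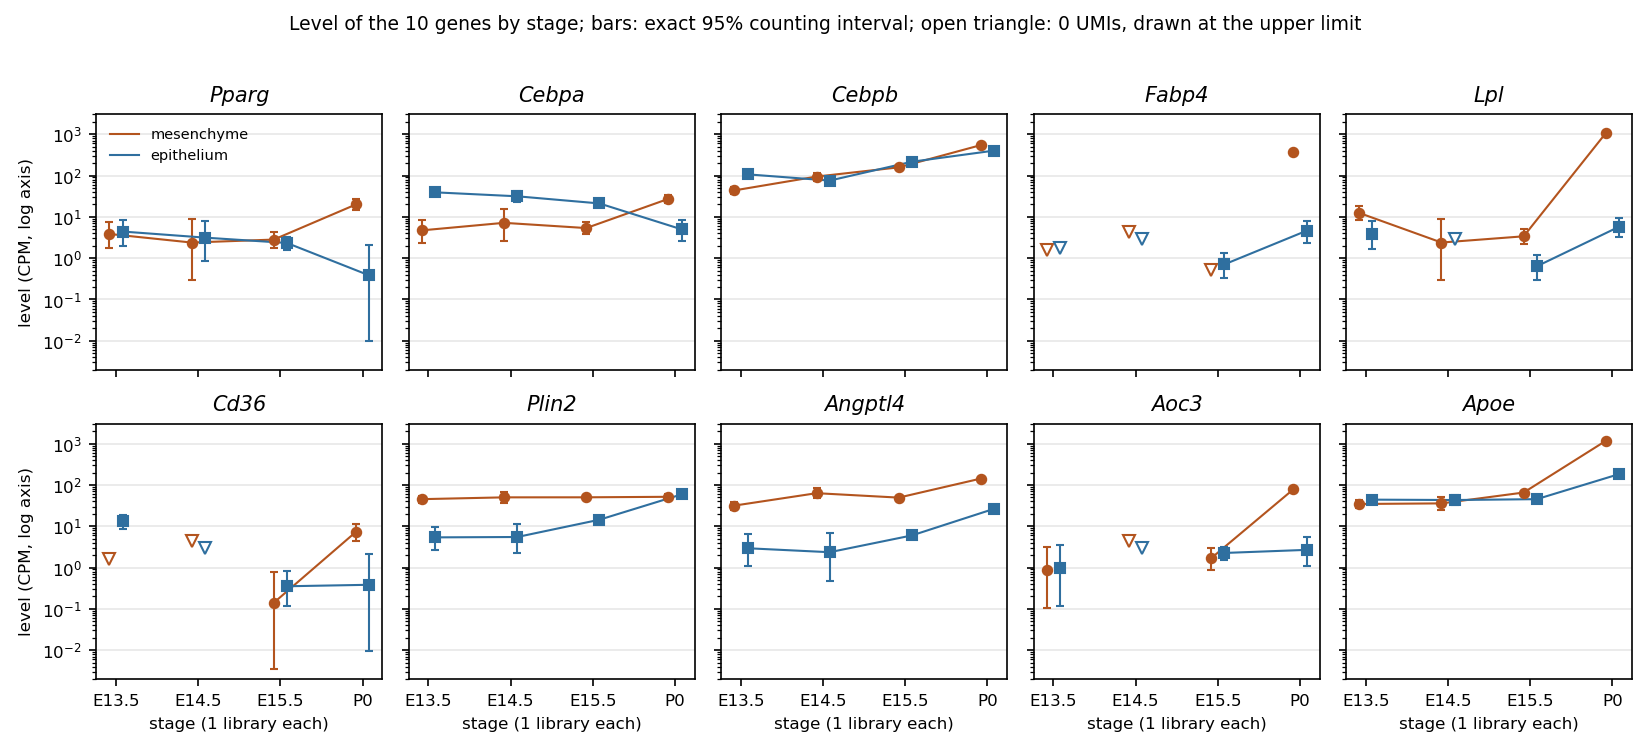
Level of each of the 10 genes (CPM, log axis) at the 4 stages in mesenchyme (brown circles) and epithelium (blue squares); bars are exact 95% counting intervals and open triangles mark 0 UMIs at the upper limit. In mesenchyme, Fabp4, Lpl, Aoc3 and Cd36 are at most 12.4 CPM at each embryonic stage, and each is higher at P0. Cebpb climbs there at each stage, and Plin2 stays between 45.3 and 51.7 CPM.

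Fabp4, the fatty acid binding protein of adipocytes, had no UMI in mesenchyme up to E15.5, and no stage between E15.5 and P0 was sampled. It was found in 0 of 129, 0 of 31 and 0 of 279 cells at the embryonic stages in order, which allows shares of up to 2.33%, 9.68% and 1.08% of cells with a UMI. At P0 it stood at 364 CPM (340 to 389), with UMIs in 95 of 265 cells (35.8%, 30.1 to 41.9) and at most 55 UMIs in a cell. That is at least 284-fold higher than at E13.5 and at least 862-fold higher than at E15.5, where each 0 was set to 3 UMIs over the group. These bounds depend on depth: after thinning they were at least 87.0 and at least 188. Fabp4 UMIs were unevenly spread: the tenth of P0 cells with the most of them carried 71.4%. In P0 epithelium of the same library, 12 of 229 cells (5.24%) had a single Fabp4 UMI each, at a median depth of 9980 UMIs per cell. At E15.5, where mesenchyme had none, 8 of 526 epithelial cells held 10 Fabp4 UMIs between them (0.706 CPM).

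Lpl, the lipase that works on the vessel wall after its release from parenchymal cells, had its largest change between E15.5 and birth. Its mesenchymal level was 12.4, 2.39 and 3.38 CPM at the embryonic stages in order and 1069 CPM (1028 to 1110) at P0. The E13.5 level lay above the E15.5 one, by 29 UMIs in 17 cells against 24 UMIs in 18 cells. At P0, 235 of 265 cells (88.7%) held a UMI, 81.5% after thinning, against 1.43% at E15.5 after thinning. The ratio of P0 to E13.5 was 86.2 (59.9 to 129) and that of P0 to E15.5 was 316 (212 to 495). Epithelium at P0 stood at 5.75 CPM, with UMIs in 4.37% of cells, so that mesenchyme was 186-fold higher (112 to 333).

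Cd36, the fatty acid translocase, stayed near the detection limit. It had 0, 0 and 1 UMI in mesenchyme at the embryonic stages, in order, and 18 UMIs in 13 P0 cells (7.33 CPM, 4.34 to 11.6). The P0 level was at least 5.71-fold that of E13.5 and at least 2.05-fold that of E14.5, where fewer cells set a higher limit. In epithelium Cd36 had its highest level at the first stage, with 27 UMIs in 16 of 98 E13.5 cells (13.2 CPM) and a single UMI at P0.

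Plin2, the coat protein of lipid droplets in most cell types, varied by less than counting error between the stages of mesenchyme. Its levels were 45.3 CPM (37.1 to 54.8), 50.1 (36.1 to 67.7), 50.2 (45.2 to 55.7) and 51.7 (43.1 to 61.5) from E13.5 to P0, all with overlapping intervals. Divided by the median ratio of all genes, the ratio of P0 to E13.5 was 1.72 instead of 1.14. The share of cells with a Plin2 UMI went from 59.1% at E15.5 to 27.2% at P0 as counted, and from 20.4% to 21.5% after thinning. In epithelium, by contrast, Plin2 went from 5.39 CPM at E13.5 to 59.0 at P0, 11-fold higher (5.96 to 22.4). The mesenchyme, 8.41-fold above the epithelium at E13.5, was at 0.875 times its level at P0 (0.687 to 1.11).

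Angptl4 encodes a secreted inhibitor of lipoprotein lipase and is a target gene of the PPARs. It was expressed in mesenchyme from the first stage, at 31.6, 63.2, 49.4 and 143 CPM from E13.5 to P0. The E14.5 and E15.5 intervals overlapped (47.4 to 82.7 and 44.4 to 54.8), and P0 was 2.89-fold above E15.5 (2.49 to 3.36). After thinning, the share of cells with an Angptl4 UMI was 22.2% at E15.5 and 22.3% at P0. It was higher in mesenchyme than in epithelium at each stage, from 5.40-fold at P0 to 26.8-fold at E14.5.

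Aoc3, a cell surface amine oxidase of adipocytes and smooth muscle, had 2, 0 and 12 UMIs in mesenchyme of the 3 embryonic stages and 193 at P0. Its level rose from 1.69 CPM at E15.5 to 78.5 at P0, a ratio of 46.5 (26.0 to 91.6), and 96 of 265 P0 cells (36.2%) had a UMI. Epithelium held 4 such cells of 229 at P0 (2.68 CPM). Apoe, the apolipoprotein of lipid export and clearance, was at 34.6, 35.8 and 65.6 CPM in embryonic mesenchyme and 1172 CPM (1130 to 1216) at P0. The P0 level was 33.8-fold that of E13.5 (27.1 to 42.7) and 17.9-fold that of E15.5 (16.2 to 19.8). Apoe also rose in epithelium, 4.15-fold from E13.5 to P0 (3.31 to 5.26), to 183 CPM, and at E13.5 and E14.5 the intervals of the ratio between the 2 tissues spanned 1. The tenth of epithelial cells with the most Apoe UMIs carried 48.9% of them at E13.5 and 85.1% at P0. After thinning, 12.2% and 25.3% of epithelial cells held an Apoe UMI.

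Of the 10 genes, the transcription factor gene Cebpb was the only one whose mesenchymal level climbed at each stage with no overlap between neighbouring intervals. It went from 43.6 CPM (35.6 to 53.0) through 94.3 (74.6 to 117) and 158 (149 to 167) to 545 (517 to 575). The thinned share of cells with a Cebpb UMI climbed with it, from 17.8% through 35.5% and 53.0% to 77.0%. In epithelium the gene also rose, 3.75-fold from E13.5 (3.24 to 4.36), to 401 CPM at P0, where mesenchyme was 1.36 times as high (1.25 to 1.48). Genes of the dissociation response moved over the same interval. Of the 14 on that list, 9 were at least 2-fold higher in mesenchyme at P0 than at E13.5 and 3 were lower (backgrounds 14.8% and 36.5%). Zfp36 rose 14-fold and Fosb 13-fold, while the heat shock genes Hspa1a and Hspa1b fell, being 7.28-fold and 7.49-fold lower. Their part in the Cebpb levels was not tested.

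Pparg, the central regulator of fat cell formation, rested on few UMIs at every stage. It had 9, 2 and 20 UMIs in embryonic mesenchyme, in order of stage, and 49 UMIs in 37 of 265 cells at P0. The levels were 3.85, 2.39 and 2.81 CPM at the embryonic stages, with overlapping intervals, and 19.9 CPM (14.8 to 26.4) at P0. The P0 level was 5.18-fold above E13.5 (2.52 to 12.0) and 7.09-fold above E15.5 (4.13 to 12.6). Cebpa, which sustains the adipocyte state, went from 4.70, 7.16 and 5.35 CPM to 27.3 CPM (21.1 to 34.6), with UMIs in 55 P0 cells. After thinning, Pparg was found in 0.358% of E15.5 cells and 10.6% of P0 cells, and Cebpa in 1.08% and 14.7%. Both genes fell in epithelium over the same stages. Cebpa went from 39.2 CPM at E13.5 to 4.98 at P0 there, and Pparg from 9 UMIs, 6 of them in 1 cell, to 1. Mesenchymal Cebpa was thus 0.120 times the epithelial level at E13.5 (0.0576 to 0.227) and 5.47 times at P0 (2.99 to 10.8).

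Some of these ratios moved when cells were left out. The endothelial marker list summed to 30.8 CPM in E13.5 mesenchyme and 37.0 CPM at P0, and the pericyte list to 56.5 and 108 CPM. Without the mesenchymal cells that held 2 or more UMIs of endothelial, immune, pericyte, erythroid or neural crest markers, 88 cells remained at E13.5 and 175 at P0. The P0 to E13.5 ratio of Pparg then became 31.7, since 1 of its 9 E13.5 UMIs remained, that of Lpl became 201, with 9 of 29 UMIs left, and that of Apoe became 50.9. The Fabp4 level at P0 became 478 CPM. Without cycling cells the P0 to E13.5 ratio of Lpl became 167, and after thinning it became 378. Thinning left no E13.5 UMI of Aoc3, whose ratio on 2 UMIs then became a bound of at least 17.5. Plin2 was the 1 gene short of 2-fold against E13.5 in each of these settings.

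**Figure D2:**
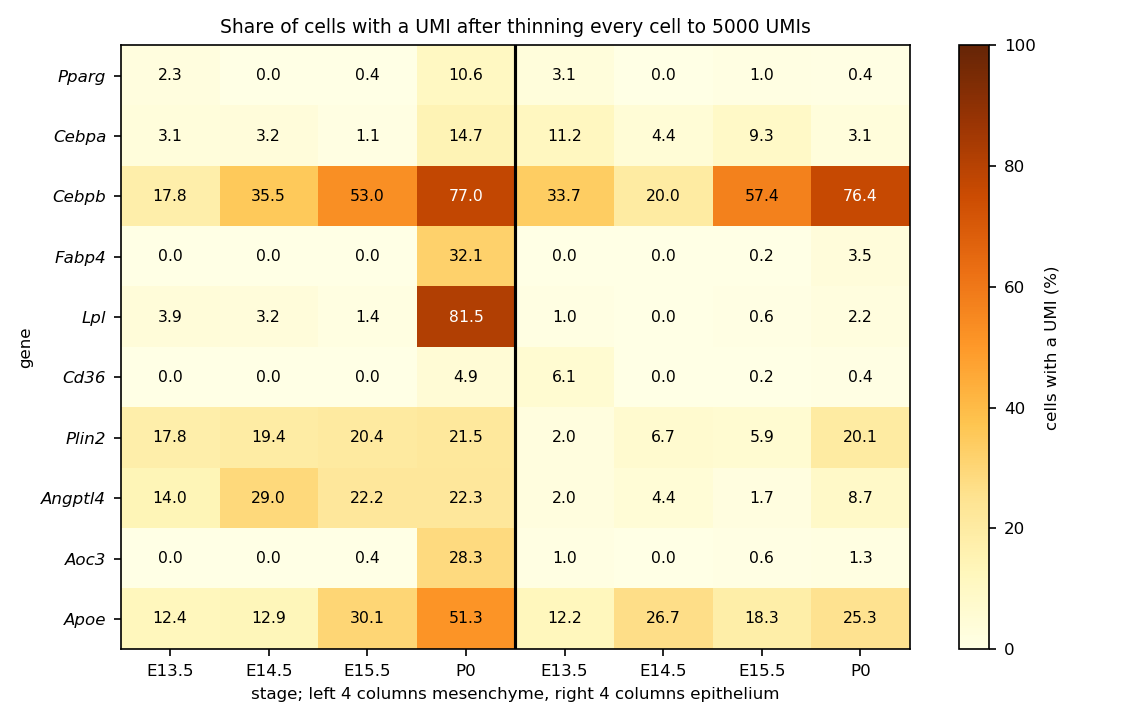
Share of cells (%) with at least 1 UMI of each gene after every cell was thinned to 5000 UMIs, by stage, in mesenchyme (left 4 columns) and epithelium (right 4 columns). In P0 mesenchyme Lpl reaches 81.5% and Fabp4 32.1% of cells, against 2.18% and 3.49% of P0 epithelial cells, whereas Plin2 varies little across mesenchyme.

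The epithelium of the same library served as the contrast free of stage and session. At P0, 8 of the 10 genes were at least 2-fold higher in mesenchyme than in epithelium, all but Cebpb and Plin2, and none was lower, with backgrounds of 20.4% and 25.6% of the 11808 genes tested. Pparg, Cd36 and Aoc3 had 1, 1 and 7 UMIs in P0 epithelium, so they met the minimum of 10 only with their mesenchymal UMIs. This count too is not independent support, since the genes were chosen with earlier results of these data known. The ratios ran from 5.40 for Angptl4 (4.16 to 7.10) through 6.41 for Apoe (5.82 to 7.08) and 29.3 for Aoc3 (13.9 to 73.8) to 186 for Lpl. That of Fabp4 was 79.1 (45.1 to 154) and that of Pparg 52.0, on 49 UMIs against 1 (8.91 to 2096). At E13.5 the picture was mixed: Lpl, Plin2 and Angptl4 were higher in mesenchyme (background 24.2%), and Cebpa, Cebpb and Cd36 were lower (background 11.6%). Lpl, Plin2 and Angptl4 were again higher at E15.5 (background 23.9%), with Cebpa the 1 gene lower (background 17.9%). At E14.5, Plin2 and Angptl4 were higher (background 19.7%) and Cebpa was lower (background 16.1%). Lpl, Angptl4 and Cd36 at E13.5 and Lpl at E15.5 had fewer than 10 UMIs in the lower tissue. So did Plin2, Angptl4 and Cebpa at E14.5. In these contrasts those genes met the minimum only with the UMIs of the higher tissue. Within epithelium, 5 of 9 genes tested were higher at P0 than at E13.5 (background 18.5%), namely Cebpb, Fabp4, Plin2, Angptl4 and Apoe, while Pparg, Cebpa and Cd36 were lower (background 22%). Fabp4 and Angptl4 had 0 and 6 UMIs in E13.5 epithelium, so they met the minimum only with their P0 UMIs, 12 for Fabp4. Pparg had 9 UMIs in E13.5 epithelium and 1 at P0. Against E15.5, 5 of 9 were higher (background 16.3%), namely Fabp4, Lpl, Plin2, Angptl4 and Apoe. Pparg and Cebpa were the 2 lower (background 18.1%), and Cebpb, at 216 CPM and then 401, fell short of 2-fold. Epithelial Lpl went from 9 UMIs (0.635 CPM) to 15 (5.75 CPM), 6 of them in 1 cell, and Fabp4 from 10 UMIs to 12. Lpl met the minimum only with its P0 UMIs.

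Single P0 mesenchymal cells carried several of these genes together. A median of 4 of the 10 genes had a UMI in a P0 mesenchymal cell, and 96 cells (36.2%, 30.4 to 42.3) held at least 5. After thinning, 76 cells (28.7%, 23.3 to 34.5) still did, against 1 of 229 P0 epithelial cells and 0 of 279 mesenchymal cells at E15.5, which allows up to 1.08%. One P0 cell held all 10. Lpl, Cebpb and Apoe had a UMI in 88.7%, 87.2% and 57.4% of P0 mesenchymal cells, so these counts also reflect how widely single genes were detected. Whether the counts exceed what the separate shares would give was not tested.

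**Figure D3:**
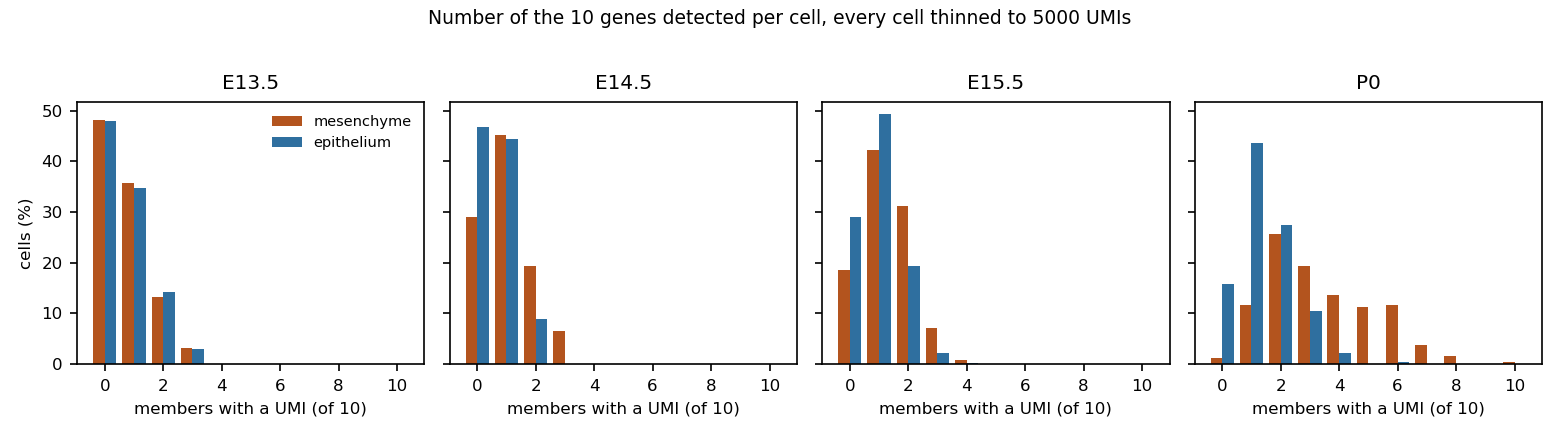
Percent of cells (vertical axis) by the number of the 10 genes with a UMI in the cell (horizontal axis), at each stage, in mesenchyme (brown) and epithelium (blue), every cell thinned to 5000 UMIs. Embryonic cells of both tissues hold at most 4 of the genes, and P0 mesenchyme extends to 10.

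Lpl was seen in most P0 mesenchymal cells, with or without Fabp4. Of the 95 P0 cells with a Fabp4 UMI, 93 also held Lpl (97.9%, 92.6 to 99.7), and 2 did not. Of the 170 cells without Fabp4, 142 held Lpl (83.5%, 77.1 to 88.8). Thinning left 97.6% against 73.9%. Fabp4, Lpl, Aoc3 and Apoe occurred together in 53 of 265 cells (20%, 15.4 to 25.3), and 14 of these 53 cells held Pparg as well. After thinning, 39 cells held those 4 genes. Fabp4 and Pparg were found together in 26 cells (9.81%, 6.51 to 14), or 17 cells (6.42%) after thinning. None of Fabp4, Lpl, Aoc3, Apoe and Pparg was seen in 18 cells. In the P0 epithelium, 5.24% of cells held Fabp4, 4.37% Lpl, 1.75% Aoc3, 0.437% Pparg and 31.4% Apoe. The part of stray RNA in these epithelial shares was not tested.

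Pparg was more often seen where Fabp4 was. Of the 95 cells with Fabp4, 26 held Pparg (27.4%, 18.7 to 37.5), against 11 of the 170 without (6.47%, 3.27 to 11.3), at median depths of 8640 and 8857 UMIs. Thinning left 20% against 6.11%. In the other direction, 26 of 37 cells with Pparg held Fabp4 (70.3%, 53.0 to 84.1), against 69 of 228 without (30.3%). Apoe followed the same split, with UMIs in 89.5% of cells with Fabp4 (81.5 to 94.8) and 39.4% of those without (32.0 to 47.2), and so did Aoc3, with 63.2% (52.6 to 72.8) and 21.2% (15.3 to 28.1). Cebpa was seen in 20% of cells with Fabp4 and 21.2% of cells without, with overlapping intervals. Cebpb was seen in most cells of both sets, 90.5% and 85.3%. Cebpa was seen in 29.7% of cells with Pparg and 19.3% of cells without, again with overlapping intervals.

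**Figure D4:**
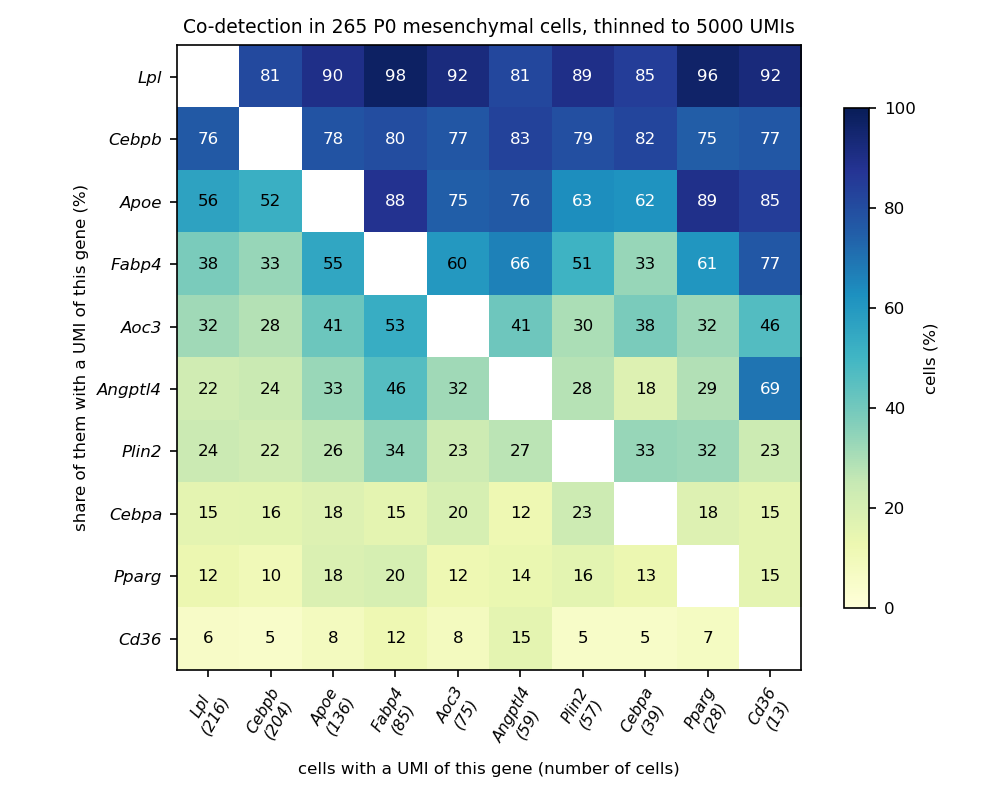
Each square gives, among the 265 P0 mesenchymal cells thinned to 5000 UMIs, the percent of cells with the gene of the column (number of cells in brackets) that also hold the gene of the row. The Fabp4 column has 97.6% for Lpl, 88.2% for Apoe and 52.9% for Aoc3, and 15.3% for Cebpa. Over all 265 cells the shares were 81.5% for Lpl, 51.3% for Apoe, 28.3% for Aoc3 and 14.7% for Cebpa.

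To describe what else these cells carried, the 74 P0 mesenchymal cells with 2 or more Fabp4 UMIs were set against the 170 with 0, over the 6462 genes with a UMI in at least 10% of the cells. These are cells of 1 library and not replicates, and Fabp4 itself chose the groups. Angptl4 had the highest ratio of all genes ranked, at 451 CPM against 30.3, 14.9-fold (11 to 20.6). Its UMIs were unevenly spread, since the tenth of P0 mesenchymal cells with the most of them carried 76.1%. Of the 8 other members in that ranking, 6 were at least 2-fold higher, and none was lower by that fold, with backgrounds of 3.36% and 5.99%: Angptl4, Apoe 6.55-fold (5.99 to 7.18), Pparg 5.22-fold (2.67 to 10.7), Lpl 3.99-fold (3.68 to 4.34), Aoc3 3.46-fold (2.55 to 4.72) and Plin2 3.22-fold (2.22 to 4.69). Plin2, whose summed level varied little by stage, thus differed between cells within P0. It also differed between cells at E15.5, as given below. Cebpb was 1.37-fold higher (1.22 to 1.54), and the Cebpa ratio of 1.20 spanned 1 (0.679 to 2.07). Cd36, outside the ranking for its low detection, had 14 UMIs against 2.

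The other genes among the 10 highest ratios for Fabp4 were Rgs16 at 9.10-fold, Trf (transferrin) at 7.87, AW112010 at 7.56, Agt (angiotensinogen) at 7.39, Ifitm1 at 6.93, Tnip1 at 6.84, Casp4 at 6.35 and Timp1 (an inhibitor of metalloproteases) at 6.29. The 5 lowest were Igfbp5, with 4 UMIs against 473, Thbs4, Bmp7, Btbd3 and Sfrp4. For the 37 cells with Pparg against the 228 without, the highest ratios were those of Tm4sf1 (5.41-fold), Lcn2 (5.06), Rgs16 (4.78), C4b (4.58), Trf (4.44), Apoe (4.07), Olfm2 (3.99), Fabp4 (3.97), Nek6 (3.86) and Apoc1 (3.79). The lowest were Thbd, Akr1c18, Igfbp5, Thbs4 and Cilp. Rgs16, Trf and Apoe stood in both high lists, which share cells. Of the 8 other members ranked for Pparg, Apoe, Fabp4, Lpl (2.48-fold), Aoc3 (2.27-fold) and Plin2 (2.19-fold) were past 2-fold and none was lower by that fold, with backgrounds of 2.21% and 7.91%. Angptl4, the highest for Fabp4, was at 1.65-fold for Pparg (1.25 to 2.15).

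The marker lists of other lineages were mostly as low or lower where Fabp4 was present. The endothelial list summed to 17.1 CPM in the Fabp4 cells and 44.5 CPM in the cells without, the pericyte list to 52.9 and 123 CPM, and the epithelial list to 317 and 399 CPM. The immune list stood at 10.9 and 10.5 CPM, with 7 and 17 UMIs, and the neural crest list at 9.34 and 3.70 CPM, with 6 UMIs in each set. The dissociation list summed to 7870 and 7887 CPM.

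The genes also divided with markers of fibroblast subsets. The study named P0 fibroblast clusters of this same library after Col15a1 and Pi16. It reported Fabp4, Pparg and Aoc3 in the Col15a1 cluster and Dpp4 in the Pi16 cluster. The ratios by these genes are thus not independent of that clustering. Col15a1, a collagen of basement membrane zones, was detected in 64 P0 cells, and Pi16 and Dpp4, markers of adventitial fibroblasts with progenitor traits, in 125 and 127. Cells with Col15a1 had 773 CPM of Fabp4 against 244 in the others, 3.17-fold (2.77 to 3.62). They also had 4.95-fold more Angptl4 (3.98 to 6.17), 4.28-fold more Apoe (3.98 to 4.61), 3.27-fold more Pparg (1.79 to 5.97) and 2.16-fold more Lpl (2.00 to 2.34). Cells with Pi16 were at the other end, with 91.8 CPM of Fabp4 against 662 (ratio 0.139, 0.113 to 0.168), 7.0 CPM of Pparg against 34.1 (0.205, 0.0875 to 0.429) and 364 CPM of Apoe against 2058 (0.177, 0.160 to 0.195). Lpl differed least of the uptake genes, at 699 CPM in Pi16 cells and 1474 CPM in the others (0.475, 0.437 to 0.515). After thinning, Lpl was found in 80.0% of cells with Pi16 and 82.9% of cells without.

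**Figure D5:**
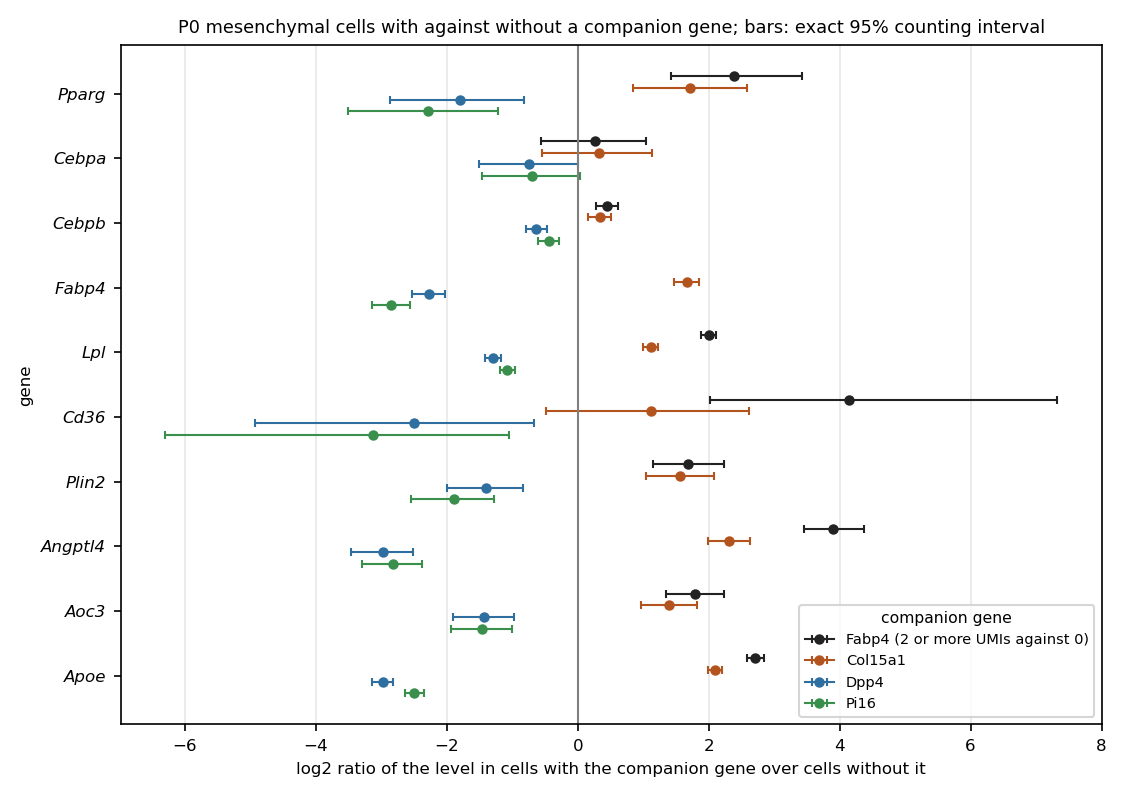
Log2 ratio of each gene's level in P0 mesenchymal cells with a companion gene over cells without it (horizontal axis), for Fabp4 (black), Col15a1 (brown), Dpp4 (blue) and Pi16 (green), with exact 95% counting intervals. Apoe, Angptl4 and Pparg lie to the right for Fabp4 and Col15a1 and to the left for Dpp4 and Pi16, while the Cebpa intervals for Fabp4 and Col15a1 span 0.

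Dpp4 gave the same directions as Pi16. Its cells had 130 CPM of Fabp4 against 628, a ratio of 0.207 (0.174 to 0.245), and 33.8 CPM of Angptl4 against 266, a ratio of 0.127 (0.0904 to 0.175). The matrix gene Mfap4 divided Fabp4: it was at 220 CPM in the 196 cells with Mfap4 and 784 CPM in the 69 without (0.280, 0.245 to 0.320), while the Pparg ratio of 0.949 spanned 1 (0.492 to 1.95). At E15.5, where Fabp4 had no UMI in mesenchyme, cells with Plagl1, a zinc finger transcription factor gene, were set against those without. Lpl had 20 UMIs in the 168 cells with Plagl1 and 4 in the 111 without, a ratio of 3.58 (1.20 to 14.4), and Pparg 17 against 3, a ratio of 4.05 (1.17 to 21.6). Cebpb was 1.20 times as high (1.06 to 1.36), Plin2 went the other way at 0.769 times (0.622 to 0.952), and the intervals of Cebpa, Aoc3, Angptl4 and Apoe spanned 1. Other companion genes gave other Lpl ratios at E15.5. With the transcription factor gene Lef1 Lpl was at 0.262 (0.104 to 0.634), and Cebpa at 0.407 (0.205 to 0.817). Cebpb was at 0.709 with Lef1 (0.626 to 0.805), while Plin2 was at 2.15 (1.60 to 2.94). With Mfap4, which 8 cells lacked, Lpl was at 0.117 (0.0422 to 0.401) and Pparg at 0.174 (0.0504 to 0.929). Those 8 cells held 5 UMIs of Lpl and 3 of Pparg, each gene seen in 25% of them. With Dpp4, seen in 5 cells, Lpl was at 21.9 (7.10 to 57.5), against 0.407 at P0. The E15.5 value rests on 6 Lpl UMIs in 40% of those 5 cells, so it does not establish a change of direction. The Lpl intervals for Col15a1, Pi16, the elastin gene Eln and cycling cells spanned 1. After thinning, 4 of 279 E15.5 cells held Lpl and 1 held Pparg.

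The wider lists of lipid genes showed which other steps differed between E13.5 and P0. Of 17 adipogenic regulators tested, 10 were at least 2-fold higher at P0 than at E13.5 and 2 were lower (backgrounds 14.8% and 36.5%, median log2 1.67, all genes -0.59), 3 of the 17 being members. Pparg and Zbtb16, among the higher, met the minimum of 10 UMIs only with their P0 UMIs. These wider lists were chosen with earlier results of these data known, so their counts are not independent support. Cebpd, an early C/EBP factor, went from 72.7 to 394 CPM, 5.42-fold (4.60 to 6.42), Ebf1 from 93.2 to 355 CPM, 3.81-fold (3.28 to 4.44), and Zbtb16 from 3 UMIs to 72, 22.8-fold (7.51 to 113). Nr2f2 was 5.31-fold lower at P0 (3.98 to 7.18). Dlk1, which marks preadipocytes before they differentiate, was at 2180 CPM at E13.5 and 7407 CPM at P0.

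Of the 20 genes of the mature adipocyte on the list, 10 had enough UMIs to compare. Of these 10, 5 were higher and 5 lower at P0 than at E13.5 (backgrounds 14.8% and 36.5%). Adipoq, Car3 and Retn, among the higher, had 0, 2 and 0 UMIs at E13.5, so they met the minimum only with their P0 UMIs. Plin4, Lep and Adrb3 were at 0 UMIs in P0 mesenchyme. Adipoq, the adipocyte hormone adiponectin, had 40 UMIs in 3 of 265 P0 cells, 1.13% (0.234 to 3.27), and none in embryonic mesenchyme. Car3, an abundant enzyme of fat cells, had 147 UMIs in 5 cells. The 3 Adipoq cells held 19, 15 and 6 Adipoq UMIs and 68, 55 and 11 Car3 UMIs, beside 73, 113 and 21 Apoe UMIs and 55, 0 and 1 Fabp4 UMIs. Without these cells and the erythroid-rich cell, 9 members were still at least 2-fold higher than at E13.5. Retn (resistin) had 70 of its 83 P0 UMIs in 1 cell and 98 UMIs in 1 cell at E14.5.

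Genes of lipid synthesis were mostly lower at birth. Of the 15 tested, 10 were at least 2-fold lower at P0 than at E13.5 and none was higher (backgrounds 36.5% lower and 14.8% higher, median log2 -2.18, all genes -0.59). The genes of the sterol pathway led: Idi1 went from 251 to 21.2 CPM, 11.9-fold lower (8.92 to 16.1), Sqle 7.02-fold lower (5.40 to 9.25), Insig1 6.16-fold lower and Hmgcs1 6.0-fold lower (5.16 to 7.0), with the fatty acid elongase Elovl6 6.57-fold lower (4.25 to 10.6). Of 17 uptake, transport and droplet genes tested, 8 were higher and 2 lower (backgrounds 14.8% and 36.5%, median log2 0.61). They included Mgll (monoglyceride lipase) with 83 UMIs against 2, Apod at 29.6-fold (17.1 to 56.0), the cholesterol exporter Abca1 at 17.0-fold (9.94 to 31.5), Hilpda at 7.45-fold, and the lipoprotein receptors Vldlr at 7.12-fold (4.67 to 11.3) and Lrp1 at 3.64-fold (3.16 to 4.21). With 2 UMIs at E13.5, Mgll met the minimum only with its P0 UMIs. Gpihbp1, the capillary anchor of lipoprotein lipase, and Lipc were at 0 UMIs in P0 mesenchyme. Among 11 PPAR target genes of fatty acid oxidation, 2 were higher and 1, Ucp2, was lower, 5.74-fold (3.15 to 11.3), with the same backgrounds of 14.8% and 36.5%, so the higher share was near that of all genes.

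Surface markers of preadipocytes and progenitors were mostly higher at birth. Of 12, 9 were higher at P0 than at E13.5 and 1 lower (backgrounds 14.8% and 36.5%, median log2 2.87). Ly6a (Sca-1) had 0 UMIs at E13.5 and stood at 840 CPM at P0, with UMIs in 74.7% of cells, at least 654-fold higher. Pi16 and Dpp4 went from 2 and 3 UMIs to 407 and 192 CPM, Cd34 from 47.9 to 407 CPM, and F3 from 6.42 to 63.9 CPM. Col15a1 was already at 40.0 CPM at E15.5, in 42.3% of cells, a stage at which Fabp4 had no mesenchymal UMI, and at 95.6 CPM at P0. After thinning, Col15a1 was found in 14.7% of E15.5 cells and 21.9% of P0 cells.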

How the data were processed

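Cells of 4 mouse mammary stages, 1 library each, had been captured with a 10x Genomics 3′ kit. The deposited files are UMI count matrices that the authors made with Cell Ranger on mm10; the submitters' notes give version 6.0.0, and the E15.5 table header gives 3.1.0, with a different gene list, so genes were matched by Ensembl identifier. The values are whole numbers and were taken as raw, not normalised, counts. The study states fewer cells per stage than its 2 thresholds leave here.

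Counts were summed over cells and scaled to CPM (Python 3.11.15, numpy 2.4.6, scipy 1.17.1). Genes with 10 or more UMIs over both groups were called past a 2-fold ratio, a 0 was set to 3 counts, and a ratio was then written as a bound. A gene with few UMIs in 1 group could thus meet that minimum through the other group alone. Intervals are exact Poisson, conditional binomial or Clopper-Pearson. With 1 library per stage no test was run. Doublets were kept in the results, and calls by Scrublet (scanpy 1.11.5) served as an alternative, with 2, 5, 6 and 4 cells called from E13.5 to P0. Libraries shared 2 barcodes, none in kept cells. The ratio and thinning code was tested on simulated data.

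The 10 genes, the gene lists and the companion genes were chosen with earlier results of these data known. Named list genes reached 20 CPM and passed 2-fold between E13.5 and P0, at most 6 per list by size of fold, plus list genes at 0 UMIs in P0 mesenchyme; Dlk1 and Adipoq were named after their values were seen. A gene that this rule names is not reported here. For Fabp4 and Pparg the 10 highest and 5 lowest ratios were named.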

Additional observations from a re-analysis of the deposited data

Results flagged for a closer look

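Cells that passed the depth and mitochondrial thresholds but were of neither class (11 at E15.5 and 9 at P0) held more than 3 UMIs of some members, although they entered no comparison. At E15.5 these were 69 UMIs of Cebpb, 11 of Cebpa, 9 of Plin2 and 6 of Angptl4, and at P0 they were 17 of Apoe, 12 of Plin2 and 11 of Cebpb.

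Pparg, Cebpa and Cd36 moved in opposite directions in the 2 tissues, and the difference between tissues was not tested. From E13.5 to P0 the ratio for Pparg was 5.18 in mesenchyme and 0.087 in epithelium (9 UMIs to 1), that for Cebpa was 5.80 and 0.127, and that for Cd36 was at least 5.71 and 0.029 (27 UMIs to 1). Of the 9 epithelial Pparg UMIs at E13.5, 6 lay in 1 cell, and the epithelium includes epidermis of the skin. From E15.5 to P0 the ratio for Pparg was 7.09 in mesenchyme and 0.165 in epithelium, and that for Cebpa was 5.10 and 0.236.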

How the results depend on the processing

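The counts of members at least 2-fold higher at P0 stayed at 9 against E13.5, 9 against E15.5 and 8 against epithelium under each of the 10 alternatives run for them, among them a lower UMI minimum, a higher mitochondrial maximum, a stricter class rule, thinning, the mean over cells, and the removal of doublets, of cells with other lineage markers or of cycling cells. Of these, 2 were added after seeing the data, the median-ratio scaling and the removal of the Adipoq and erythroid-rich cells. The share of P0 cells with both Fabp4 and Pparg became 6.42% after thinning, below the interval of the main value, and ranged up to 10.9% otherwise. The number of all genes at least 2-fold higher at P0 than at E13.5, 1793, became 1138 with a minimum of 50 UMIs, where fewer genes were tested, and 2755 with the median-ratio scaling, which gave 2518 lower in place of 4416. Of the recomputed values for single members, 349 stayed within their counting interval and 68 moved beyond it. Plin2 had ratios on both sides of 1, from 0.756 to 1.07 for mesenchyme over epithelium at P0 and from 0.946 to 1.34 for P0 over E15.5, and no other gene crossed 1. With 1 or more UMIs of Fabp4 as the limit, before or after thinning, or 5 or more, the Angptl4 ratio ranged from 11.9 to 14.9 and the Pparg ratio from 4.04 to 6.34. No paired analysis was possible because each stage has 1 library, and for the same reason no replicate could be left out. Depth limits Pparg, Cd36 and embryonic Aoc3, Lpl and Cebpa, since each rests on few UMIs.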
